A study of Mus musculus and Mus musculus musculus x Mus musculus castaneus with 52 samples.

Results

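Mouse induced pluripotent stem cells (iPSCs, somatic cells reprogrammed to an embryonic stem cell-like state) with 2 X chromosomes were compared with iPSCs with 1 at an early passage. The members are 6 RNA sequencing libraries of 52 samples in the series, chosen by their labels: the lines LV20, LV21 and LV22, labelled XX, and the lines LV4, LV8 and LV16, labelled XY. All 6 are wild type, undifferentiated and at passage 7 (P7), with 1 library for each line. The labels name no further cultures of a line, so the error is the spread between 3 lines of each kind, and the cells from which they were reprogrammed are not described in the labels used here. The same 6 lines were also read at passage 13 (P13), where the labels' design text gives the female lines as XO. The wild-type embryonic stem cell (ESC) lines CM1 and CM2 (XX) and CM3 and CM7 (XY), also undifferentiated and read at passage 5, served as a separate pair of groups. P7 libraries held 8309171 (LV8) to 12088650 (LV22) reads assigned to genes. The growth conditions of the iPSC RNA samples are not given in the labels used here, and those of the chromatin samples name serum, LIF and male feeder cells.

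Female mouse pluripotent stem cells keep both X chromosomes active, so X-linked genes are read from both copies until one X is inactivated or lost. In ESCs, a second active X is known to go with weaker differentiation signalling through the kinase ERK, with higher naive pluripotency factors and with lower DNA methylation. Dusp9, an X-linked phosphatase acting on ERK, is one of the X-linked genes linked to this state. Many germline genes are silenced in the early embryo by methylation of CpG-rich promoters, which makes their transcripts a common readout of a hypomethylated state.

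The promoters of the germline and early-embryo genes that separated the lines are shown first, because these groups of genes differ in the density of CG dinucleotides, the sites of DNA methylation. Each sequence is the 250 bases before an annotated start, read 5′ to 3′ along the gene's strand, from RefSeq on GRCm38.p6. In the first 4, capitals mark every CG. Dazl, which encodes a germ cell RNA-binding protein, and Syce1, a synaptonemal complex protein of meiosis, are germline genes. Pramel6 and Pramel7 are neighbouring genes of a family expressed in early embryos and germ cells.
Dazl, chr17:50293621-50293870, minus strand: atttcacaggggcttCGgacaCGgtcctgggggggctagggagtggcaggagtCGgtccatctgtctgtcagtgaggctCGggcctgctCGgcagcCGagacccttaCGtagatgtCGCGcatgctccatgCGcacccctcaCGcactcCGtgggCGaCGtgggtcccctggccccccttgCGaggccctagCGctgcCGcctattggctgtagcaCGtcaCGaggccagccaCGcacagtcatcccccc
Syce1, chr7:140787855-140788104, minus strand: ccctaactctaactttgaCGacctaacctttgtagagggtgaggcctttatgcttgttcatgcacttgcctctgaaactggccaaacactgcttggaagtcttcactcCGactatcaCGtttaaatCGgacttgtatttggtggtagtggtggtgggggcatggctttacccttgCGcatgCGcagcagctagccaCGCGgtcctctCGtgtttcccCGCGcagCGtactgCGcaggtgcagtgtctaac
Pramel6, chr2:87506315-87506564, plus strand: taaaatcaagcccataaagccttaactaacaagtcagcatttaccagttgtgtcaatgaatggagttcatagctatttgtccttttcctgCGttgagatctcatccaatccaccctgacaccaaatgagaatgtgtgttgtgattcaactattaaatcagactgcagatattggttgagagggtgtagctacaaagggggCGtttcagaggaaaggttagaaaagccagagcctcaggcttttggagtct
Pramel7, chr2:87492419-87492668, minus strand: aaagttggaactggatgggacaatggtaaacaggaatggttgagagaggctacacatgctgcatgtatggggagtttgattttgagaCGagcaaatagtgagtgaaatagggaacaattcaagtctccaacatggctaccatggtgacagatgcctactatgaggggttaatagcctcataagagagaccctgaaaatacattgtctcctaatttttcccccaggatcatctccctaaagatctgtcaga
The Dazl promoter held 20 CG dinucleotides and that of Syce1 held 13, against 2 for Pramel6 and 1 for Pramel7.

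The promoters of Mael, a piRNA pathway gene, and Taf7l, an X-linked germ cell paralogue of a TFIID subunit, are shown for a motif. Here capitals mark the letters CACGTG, an E-box that reads the same on both strands, and GCGGGA on either strand, where it reads TCCCGC on the other. Both motifs are known in germline promoters that are repressed in somatic cells.
Mael, chr1:166238745-166238994, minus strand: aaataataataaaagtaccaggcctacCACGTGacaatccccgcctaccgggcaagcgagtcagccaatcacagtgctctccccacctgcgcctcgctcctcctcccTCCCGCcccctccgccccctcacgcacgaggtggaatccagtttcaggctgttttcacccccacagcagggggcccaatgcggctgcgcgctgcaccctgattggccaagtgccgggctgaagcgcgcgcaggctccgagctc
Taf7l, chrX:134476491-134476740, minus strand: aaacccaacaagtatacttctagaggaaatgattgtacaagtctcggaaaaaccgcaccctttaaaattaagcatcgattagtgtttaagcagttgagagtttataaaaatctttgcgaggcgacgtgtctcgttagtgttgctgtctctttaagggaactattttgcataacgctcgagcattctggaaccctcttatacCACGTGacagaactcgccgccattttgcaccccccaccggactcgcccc
Among the called germline genes, 12 promoters of 10 genes were in the table, some of them overlapping. Their median CG count was 15.5, CACGTG lay in 6 of 12 (50%) and GCGGGA in 5 (41.7%). The 35 promoters of germline genes that were tested and not called had a median of 15, with 37.1% and 45.7% holding the 2 motifs. Over all 32851 promoters of the table the median was 6, with CACGTG in 6.02% and GCGGGA in 16.9%. The called and uncalled germline promoters had similar medians, both above that of the whole table. These counts describe the letters of a window and say nothing of the methylation in these lines, which was not measured here.

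The X chromosome was read first in each line. Levels are given as log2 CPM (counts scaled for the size of each library), on which a gene without a read has the value -2.45. The median X-linked gene minus the median autosomal gene was highest in LV22 (0.58), then LV20 (0.44) and LV21 (-0.16), and stood at -0.45 in LV4, -0.59 in LV8 and -0.49 in LV16. The XX lines lay above every XY line, and LV21 lay nearer to the XY lines than to the other XX lines. The group difference was 0.79 with an exact two-sided permutation p = 0.1, the smallest that 3 libraries against 3 allow. Against the mean of the XY lines, the median of the 509 X-linked genes tested was higher by 0.688 (LV20), 0.318 (LV21) and 0.891 (LV22) on the log2 scale. X-linked genes stood above the XY mean in 457 cases in LV20, 429 in LV21 and 474 in LV22.

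**Figure D1:**
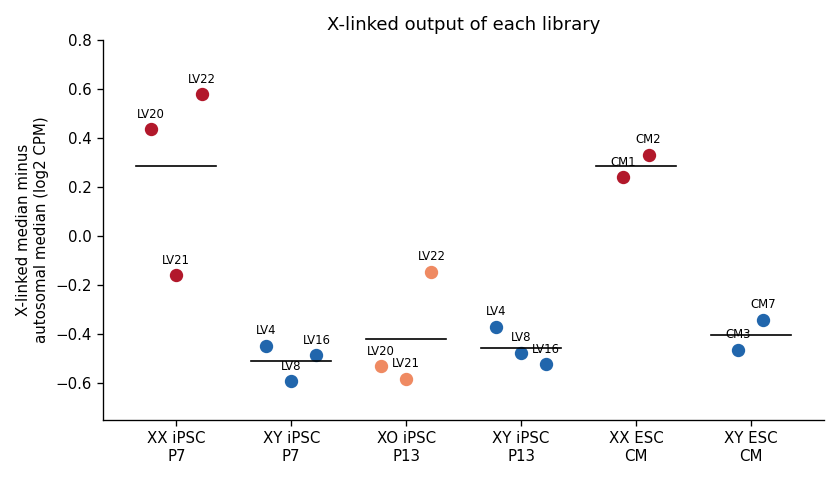
Median log2 CPM of the X-linked genes, less the median of the autosomal genes, in each library (points, named by line), with group means as horizontal lines. At P7 LV20 (0.44) and LV22 (0.58) stand well above the XY lines, and LV21 (-0.16) stands between.

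The smaller value of LV21 was spread along the whole chromosome. In 5 bins of 101 or 102 X-linked genes in chromosome order, the median difference from the XY mean ran from 0.258 to 0.364 in LV21. The same bins gave 0.62 to 0.747 in LV20 and 0.851 to 0.97 in LV22. No bin of LV21 reached a bin of either other XX line, and no bin fell to the level of an XY line set against the other two, which ran from -0.105 to 0.135. A mixture of cells with different X content and an even change within each cell cannot be told apart in bulk RNA.

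**Figure D2:**
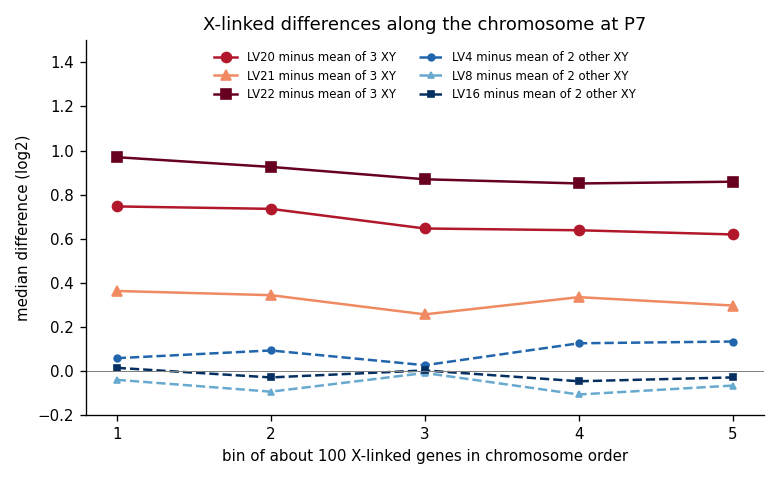
Median difference of X-linked genes from the XY lines in 5 bins along the X chromosome (horizontal axis, bin order; vertical axis, log2). Solid lines are XX lines against the mean of 3 XY lines and dashed lines are each XY line against the other 2; the order LV22, LV20, LV21 holds in every bin.

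LV21 stood apart in a second way. Over the 724 tested genes of chromosome 8 its median difference from the XY mean was 0.386, against -0.0167 in LV20 and -0.0513 in LV22. On the other autosomes its median ran from -0.0468 to 0.0263. Chromosome 8 held 19 genes called higher and 0 called lower, and 18 of the 19 were also called without LV21. Among the list members on chromosome 8 are the naive factors Klf2 and Zfp42, and Tex15 and Tubb3 were called higher. Because LV21 stands apart, the counts of called list members below are given with and without it. LV21 was singled out by its values in these same libraries, as the XX line nearest to the XY lines in X-linked output. Leaving LV21 out therefore favours larger differences, and a rise in calls without it is no separate support.

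A gene was called when limma, a linear model with moderated variances fitted over all 12 iPSC libraries, gave an adjusted p below 0.05 in a two-sided test, with Benjamini-Hochberg adjustment over all genes. Of 13978 genes tested 668 were called (4.78%). Among 12966 autosomal genes 249 were higher in XX (1.92%) and 236 lower (1.82%), and among the X-linked genes 165 were higher (32.4%) and 0 lower. With the count-based weights of voom on the recovered reads the autosomal split was 159 higher and 232 lower. Without LV21 the autosomal calls were 639 higher (4.94%) and 752 lower (5.82%), and of 507 X-linked genes 305 were higher (60.2%) and 1 lower. Outside chromosome 8 the counts with all lines were 230 higher and 236 lower of 12242. Each of the other libraries also carried the calls, since the autosomal counts fell to 38 higher and 47 lower without LV20, 15 and 10 without LV22, 101 and 94 without LV4, 25 and 10 without LV8, and 95 and 44 without LV16. Only 22 autosomal calls, 12 higher and 10 lower, held without each library in turn.

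Xist and the Y-linked genes separated the 6 lines as labelled. Xist, the RNA that coats an inactivating X chromosome (chromosome X, 103460373 to 103483233), stood at 3.72 in LV20, 1.66 in LV21 and 4.33 in LV22. It was at -0.94, -2.45 and -1.45 in LV4, LV8 and LV16. The order of the XX lines in Xist was that of their X-linked output. All 5 Y-linked genes were lower in the XX lines, and this held without each library in turn. Eif2s3y, a translation factor gene of the Y, stood at 1.45, -0.72 and 0.53 in LV20, LV21 and LV22 against 6.47, 6.40 and 6.17 in LV4, LV8 and LV16. Traces of Y-linked reads were thus present in the female libraries.

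Of 34 X-linked regulators tested 19 were higher and 0 lower, 28 and 0 without LV21, against 32.4% and 60.2% of all X-linked genes higher. Dusp9 was at 7.50 in LV20, 6.16 in LV21 and 7.20 in LV22, against 5.90, 6.04 and 5.87 in LV4, LV8 and LV16. LV21 exceeded the highest XY line by a small margin only. The Dusp9 difference was 1.01 ± 0.26 (limma log2 difference ± SE, adjusted p = 0.0416), and 1.41 without LV21. Scml2, a Polycomb group gene, had the largest difference of these regulators after Xist, at 8.13, 6.26 and 7.86 in the XX lines against 3.55, 3.53 and 3.02. That difference, 4.05 ± 0.60, held its call without each library. Porcn, which acylates Wnt proteins, was at 4.96, 4.05 and 4.95 against 3.17, 2.72 and 3.44. Rhox5, a homeobox gene regulated by methylation, was at 5.71, 4.41 and 6.10 against 3.58, 3.82 and 3.88. The calls of Xist and Porcn were each lost without LV22 (adjusted p = 0.0661 and 0.0632) and without LV8 (0.0569 and 0.0591). Those of Dusp9 and Rhox5 were lost without any one of LV20, LV22, LV4, LV8 and LV16 (adjusted p up to 0.193 and 0.19).

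Naive pluripotency factors gave calls in 1 direction. Of 22 members 6 were called higher and 0 lower, 13 and 0 without LV21, against 1.92% and 4.94% of autosomal genes. The median difference of the 21 autosomal members from the XY mean was 0.598 (LV20), 0.0397 (LV21) and 0.542 (LV22), beside medians of all autosomal genes of -0.0202, 0.0192 and -0.0148. The count fell to 1 without LV20, LV22, LV4 or LV8 and to 3 without LV16.

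Tbx3, a T-box factor that sustains the naive state (chromosome 5, 119670534 to 119684724), stood at 7.77 in LV20, 6.82 in LV21 and 7.81 in LV22. The XY lines LV4, LV8 and LV16 stood at 5.24, 5.10 and 6.11, so the groups did not overlap and LV21 lay between. The difference was 1.98 ± 0.31 (adjusted p = 0.00571), and its call held without each library. Prdm14, a regulator of naive and germ cell identity, was at 5.61, 4.29 and 5.42 against 3.24, 4.22 and 4.15, a difference of 1.24 ± 0.33. Here LV21 stood just above LV8 and LV16. Klf4, one of the reprogramming factors, was at 9.12, 8.62 and 9.01 against 8.27, 8.53 and 8.56. Klf5, a related factor, was at 7.56, 7.38 and 7.66 against 6.67, 6.68 and 7.03, with LV21 close to the other XX lines. Zfp57, which protects methylation at imprints, was at 8.60, 8.22 and 8.82 against 7.95, 8.01 and 8.03. Tcl1, an Akt coactivator named here after its values were seen, was called with overlapping groups, since LV16 at 5.30 lay above LV21 at 5.08, and its call was lost without LV20, LV22, LV4 or LV8. Leaving out a library raised the adjusted p to at most 0.198 for Prdm14, 0.194 for Klf4, 0.146 for Zfp57 and 0.103 for Klf5.

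Nanog, a central naive factor, stood at 9.74 in LV20 and 9.75 in LV22, but at 8.71 in LV21, within the XY range of 8.42, 8.63 and 8.74. The difference of 0.80 ± 0.23 did not pass (adjusted p = 0.0623), and without LV21 it was 1.15 (adjusted p = 0.00046). Tfcp2l1, a naive transcription factor, was at 9.44, 8.76 and 9.51 against 8.62, 8.88 and 8.95, and passed only without LV21 (0.66, adjusted p = 0.016). Fgf4, the growth factor that drives ERK in these cells, stood at 7.94, 6.73 and 7.91 against 6.73, 7.50 and 7.17, with LV21 level with the lowest XY line. Not every naive gene followed this pattern. Esrrb, a nuclear receptor, was at 9.41, 9.00 and 9.46 against 9.08, 9.40 and 9.37, with a difference of 0.00 ± 0.12. Klf2 was at 7.84, 8.05 and 8.02 against 7.69, 7.95 and 8.03, and Zfp42 (Rex1) at 7.58, 7.29 and 7.79 against 7.39, 6.99 and 7.38.

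**Figure D3:**
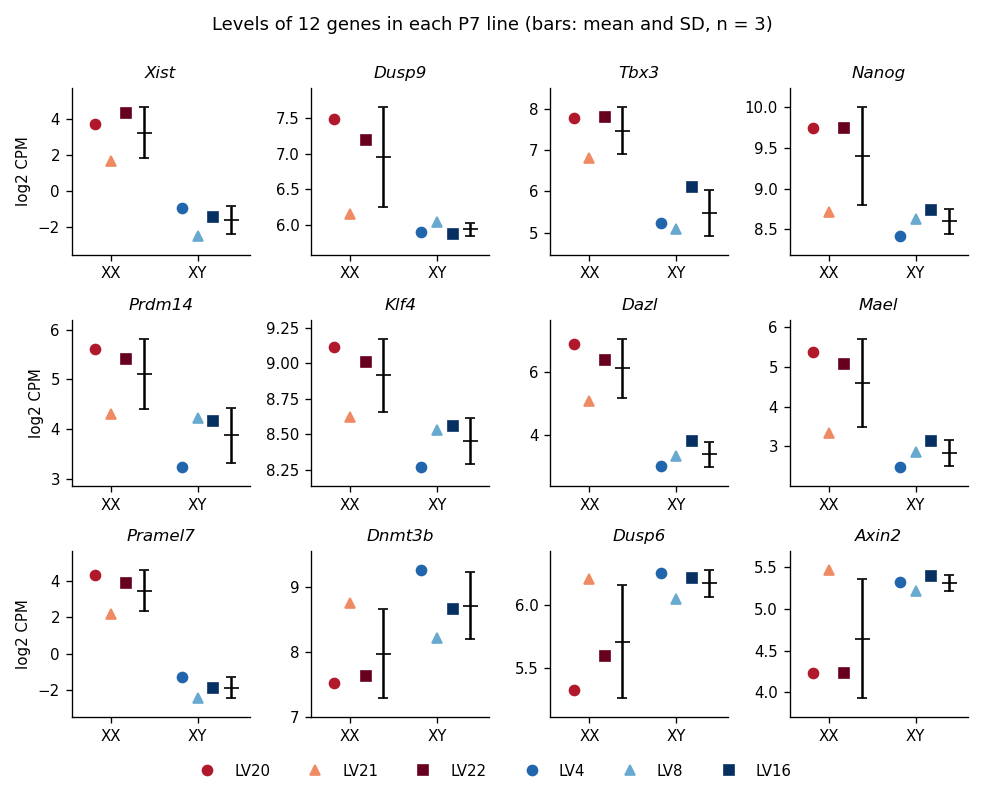
Log2 CPM of 12 genes in each P7 line (points), with the mean and SD of each group of 3 as bars; the vertical scale differs between genes and does not start at 0. LV21 lies between the groups for Tbx3, Dazl and Pramel7 and within the XY range for Nanog, Dusp6 and Dnmt3b.

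The core pluripotency list is shared by naive and later states. Of its 13 autosomal members 2 were called higher (Pou5f1 and Dppa2) and 0 lower, beside 1.92% and 1.82% of autosomal genes. Without LV21 these counts were 3 and 1, beside 4.94% and 5.82%. The median difference of the 13 members was 0.102. Pou5f1, the factor that defines the pluripotent state, was at 9.05, 8.84 and 9.09 against 8.69, 8.57 and 8.71, a difference of 0.34 ± 0.08 (adjusted p = 0.0271). Dppa2, which counteracts methylation at developmental genes, was at 5.44, 4.68 and 5.70 against 4.39, 4.13 and 4.36. Sox2 stood at 9.11, 8.39 and 8.97 against 8.14, 8.51 and 8.63 and passed only without LV21 (0.61, adjusted p = 0.0096). The calls of Pou5f1 and Dppa2 were each lost without any one of LV20, LV22, LV4, LV8 and LV16, with adjusted p up to 0.15 for both.

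Genes of the formative and primed states, which follow naive pluripotency in the embryo, gave 1 call among 19 tested members. This was Foxd3, a forkhead factor, at 4.05, 3.27 and 4.27 against 1.74, 0.68 and 1.91, a difference of 2.42 ± 0.42 (adjusted p = 0.00907). It is also expressed in naive cells. Of all autosomal genes 1.92% were higher with all lines. Without LV21, 3 members were higher and 6 lower, all of them autosomal, beside 4.94% and 5.82% of autosomal genes. Sox11, named after its values were seen, was at 6.43, 7.17 and 6.31 against 7.25, 7.29 and 7.23, with LV21 beside the XY lines, and was among those 6. The call of Foxd3 was lost without LV22 (adjusted p = 0.0616) and without LV8 (0.0569). Otx2 was at 3.94, 3.93 and 4.49 against 4.68, 4.47 and 4.25, and Fgf5 at 1.74, 3.69 and 2.31 against 2.93, 1.35 and 1.68. Neither Otx2 nor Fgf5 passed with or without LV21.

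ERK signalling was read by roles. Of 40 members tested 2 were called higher, the X-linked Dusp9 and Rps6ka3, and 1 lower, Mapk3. The 37 autosomal members held 0 higher and 1 lower, beside 1.92% and 1.82% of autosomal genes, and 32.4% of X-linked genes were higher. Without LV21, 4 were higher, 3 of them X-linked, and 7 lower. In that fit 60.2% of X-linked genes were higher, and 4.94% and 5.82% of autosomal genes were higher and lower. Of the 7 lower members, 4 were among the 11 feedback inhibitors. Of 4 ligands and 4 receptors 0 were called, of 13 transducers 1 was higher and 1 lower, and of 8 targets 0 were called. Over the 11 inhibitors the median difference from the XY mean was below 0 in LV20 (-0.309) and LV22 (-0.252) and near 0 in LV21 (0.0337). For the 8 targets LV21 stood alone at 0.532, with LV20 at -0.0837 and LV22 at -0.0452.

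Mapk3, which encodes ERK1, stood at 6.16, 6.45 and 6.13 in LV20, LV21 and LV22 against 6.73, 6.80 and 6.78 in the XY lines. Its difference was -0.53 ± 0.11 (adjusted p = 0.0207), and LV21 lay between the groups. Rps6ka3, an X-linked kinase downstream of ERK, was at 6.97, 6.45 and 6.90 against 6.19, 6.01 and 6.02. Dusp6, a phosphatase induced by ERK and acting on it, was at 5.32, 6.21 and 5.60 against 6.25, 6.05 and 6.22. Spry4, another feedback inhibitor, was at 4.18, 5.09 and 4.74 against 5.67, 4.95 and 5.67. In both, LV21 stood within the XY range while LV20 and LV22 lay below it. Neither passed with all lines (adjusted p = 0.167 for Dusp6 and 0.116 for Spry4), and both were called lower without LV21 (-0.72, adjusted p = 0.0077 for Dusp6 and -0.97, adjusted p = 0.030 for Spry4). Egr1, an immediate target of ERK, was lower in each XX line than in any XY line, at 8.67, 9.15 and 9.02 against 9.23, 9.45 and 9.27, but did not pass (-0.37 ± 0.38). The target Etv4 overlapped between the groups (difference 0.08 ± 0.21). The calls of Mapk3 and Rps6ka3 were each lost without LV20, LV22, LV8 or LV16, with adjusted p up to 0.12.

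In the Wnt pathway 3 of 29 tested members were higher and 3 lower, and 3 and 7 without LV21. Of the 27 autosomal members 1 was higher and 3 lower, beside 1.92% and 1.82% of all autosomal genes, and without LV21 1 and 7, beside 4.94% and 5.82%. The increases were Porcn and Amer1, both X-linked, and Notum, a secreted enzyme that inactivates Wnt proteins. The decreases were the receptor Fzd7, the transcription factor Tcf7 and the receptor-degrading ligase Rnf43. Notum was at 4.82, 4.23 and 5.17 against 3.60, 2.03 and 2.63 (1.98 ± 0.41, adjusted p = 0.0199). Fzd7 was at 6.34, 6.30 and 6.23 against 6.89, 6.93 and 7.08 (-0.67 ± 0.14, adjusted p = 0.0196), so that the 3 XX lines lay together. Rnf43 was at 1.08, 1.14 and -0.38 against 2.54, 2.66 and 2.04, on 45 reads in XX and 145 in XY. Axin2, a Wnt-induced inhibitor, stood at 4.23 in LV20 and LV22 and at 5.46 in LV21, against 5.32, 5.21 and 5.40. It did not pass (-0.67 ± 0.30) and was lower without LV21 (-1.08, adjusted p = 0.0089). Over the 5 receptors the median difference was lowest in LV22 (-0.566), then LV20 (-0.47) and LV21 (-0.124). Of these 6 calls, 0 were kept without LV22 or LV8, that of Porcn alone was kept without LV20 and without LV16, and those of Porcn, Notum and Fzd7 were kept without LV4.

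Further signalling lists were read. Of 18 LIF and Stat3 members 0 were called, and 1 was lower without LV21, beside 5.82% of autosomal genes lower in that fit. Stat3, the factor through which LIF acts, was at 7.20, 7.36 and 7.01 against 7.40, 7.48 and 7.53, with -0.28 ± 0.10 (adjusted p = 0.113) and -0.36 without LV21 (adjusted p = 0.025). Socs3, its feedback inhibitor, overlapped at 7.48, 7.03 and 6.96 against 7.28, 7.85 and 7.66. Of 27 BMP and Nodal members 0 were called, and 2 higher and 1 lower without LV21, beside 4.94% and 5.82% of autosomal genes. Id1, a BMP target, was at 2.48, 4.71 and 2.73 against 3.46, 3.18 and 3.31, with LV21 above all others. Lefty1, a Nodal inhibitor, was below every XY line in the 3 XX lines, at 6.37, 6.48 and 5.89 against 6.53, 6.68 and 7.25, and did not pass (adjusted p = 0.188). Of 21 PI3K and Akt members 1 was higher, Tcl1, and 2 lower, beside 1.92% and 1.82% of autosomal genes. Without LV21, 4 were higher and 1 lower, beside 4.94% and 5.82% of autosomal genes. Centring each library on its autosomal median left 1 higher and 0 lower. The lower genes were Pik3cd, a catalytic subunit (4.34, 4.79 and 4.63 against 5.15, 5.14 and 5.33), and Tsc1, an inhibitor of mTOR (6.11, 5.70 and 5.89 against 6.29, 6.48 and 6.41). The call of Pik3cd was lost without any one of LV20, LV22, LV4, LV8 and LV16 (adjusted p up to 0.17), and that of Tsc1 without any one of the 6 libraries (0.0621 to 0.177).

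The germline list gave the most autosomal calls by number of the lists described here, 8 of 37 tested. By share the naive list (6 of 21 autosomal members) and the preimplantation list (4 of 7 members) stood higher. Of 45 germline members with values, 41 reached a mean of 1 CPM. Of these 11 were called higher and 0 lower, 8 and 0 among the 37 autosomal ones, against 1.92% of autosomal genes. Without LV21, 26 were higher, 22 of them autosomal and 4 X-linked, and 1 was lower. In that fit 4.94% of autosomal and 60.2% of X-linked genes were higher, and 5.82% of autosomal genes were lower. Of the called members, Gtsf1, Tuba3b and Rhox13 were under 1 CPM in the XY lines and above it in the XX lines, so the count over tested members is a description. The median difference of the autosomal members from the XY mean was 1.08 (LV20), 0.0613 (LV21) and 0.849 (LV22). LV20 thus stood above LV22 here, unlike in X-linked output. The count fell to 2 without LV20, 1 without LV22, 4 without LV4, 2 without LV8 and 3 without LV16.

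Dazl (chromosome 17, 50279393 to 50293620) stood at 6.89 in LV20, 5.08 in LV21 and 6.38 in LV22, against 3.04, 3.34 and 3.82 in LV4, LV8 and LV16. No line of one group reached the other, and LV21 lay between. The difference of 2.72 ± 0.41 (adjusted p = 0.00559) held without each library. Among piRNA genes 2 of 10 tested were higher. Mael was at 5.39, 3.33 and 5.08 against 2.49, 2.86 and 3.15, so that LV21 was near the XY lines (1.77 ± 0.44, adjusted p = 0.0351). Gtsf1 was at 1.65, 0.74 and 1.89 against -0.94, -0.37 and -1.13, on 85 reads in XX and 11 in XY. Ddx4 (Vasa), a helicase of the same pathway, was not called, at 5.40, 4.80 and 5.28 against 5.46, 5.70 and 5.22.

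Among meiotic genes 4 of 17 tested were higher. Syce1 was at 5.31, 3.82 and 5.25 against 2.12, 3.10 and 2.55 (2.20 ± 0.35, adjusted p = 0.00666). Sycp3, of the same synaptonemal complex, was lower in each XX line, at 3.90, 3.71 and 4.41 against 4.54, 4.84 and 4.73, and did not pass (adjusted p = 0.168). Taf7l was at 5.10, 3.10 and 4.76 against 2.05, 1.60 and 2.40, and Rhox13, an X-linked homeobox gene of germ cells, at 2.67, -0.11 and 0.96 against -2.45, -1.73 and -1.45. Tuba3b, a testis tubulin, had 88 reads in the XX libraries and 2 in the XY libraries, a ratio of 39.9 (95% exact counting interval 10.7 to 334). The interval pools the reads of each group and leaves out the spread between lines. The call of Tuba3b was lost without LV4 (adjusted p = 0.111), LV8 (0.0996) or LV16 (0.118). Without LV20 or LV22 the gene was not tested. It shares a near-identical copy, Tuba3a, so the split of reads between the copies is uncertain. The call of Mael was lost without any one of LV20, LV22, LV4, LV8 and LV16 (adjusted p up to 0.177). That of Gtsf1 was lost without LV20, LV22, LV8 or LV16 (up to 0.115), and that of Taf7l without LV20, LV22 or LV8 (up to 0.0942). Syce1 lost its call without LV22 only (0.0538). Rhox13 lost it without LV22, LV4, LV8 or LV16 (up to 0.112) and was not tested without LV20.

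Genes of germ cell specification act before the meiotic genes. Of 14 tested members 1 was higher, Prdm14, and 1 lower, Dnd1, beside 1.92% and 1.82% of autosomal genes. Dnd1, an RNA-binding protein that protects germ cells, was at 3.85, 3.63 and 3.33 against 4.17, 4.89 and 4.42 (-0.89 ± 0.23, adjusted p = 0.0386). Its call was lost without LV20, LV22, LV8 or LV16 (adjusted p up to 0.186). Without LV21, 5 members were higher, 2 of them X-linked, and 2 lower. In that fit 4.94% of autosomal and 60.2% of X-linked genes were higher, and 5.82% of autosomal genes were lower.

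Among preimplantation genes, Pramel6, Pramel7 and Obox6 had the 3 largest differences of the called autosomal genes ranked by size. Of 9 members with values, 7 reached 1 CPM, and 4 of those were called higher and 0 lower, 6 and 0 without LV21, beside 1.92% and 4.94% of autosomal genes higher. Pramel6, Pramel7 and Obox6 were under 1 CPM in the XY lines (means of 0.0985, 0.106 and 0.394) and high in the XX lines, so this count is a description only. Pramel7 was at 4.32, 2.18 and 3.88 against -1.29, -2.45 and -1.87, and Pramel6 at 4.39, 2.43 and 3.67 against -1.76, -2.45 and -1.45. Each had 3 reads over the 3 XY libraries, and the ratio of XX to XY reads was 124 for Pramel7 (95% exact counting interval 42.0 to 602) and 122 for Pramel6 (41.5 to 594). These intervals pool the reads of each group and leave out the spread between lines. Obox6, an oocyte homeobox gene, was at 3.44, 2.18 and 3.26 against -0.66, -2.45 and -0.13. Nlrp4f, a gene of oocytes and early embryos, was at 5.99, 5.14 and 6.33 against 4.66, 4.75 and 4.62. LV21 stood between the groups in each of these 4. The calls of Pramel6 and Pramel7 held without each library, that of Obox6 was lost without LV22 (adjusted p = 0.0544) and that of Nlrp4f without LV20, LV22, LV4, LV8 or LV16 (adjusted p up to 0.197).

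**Figure D4:**
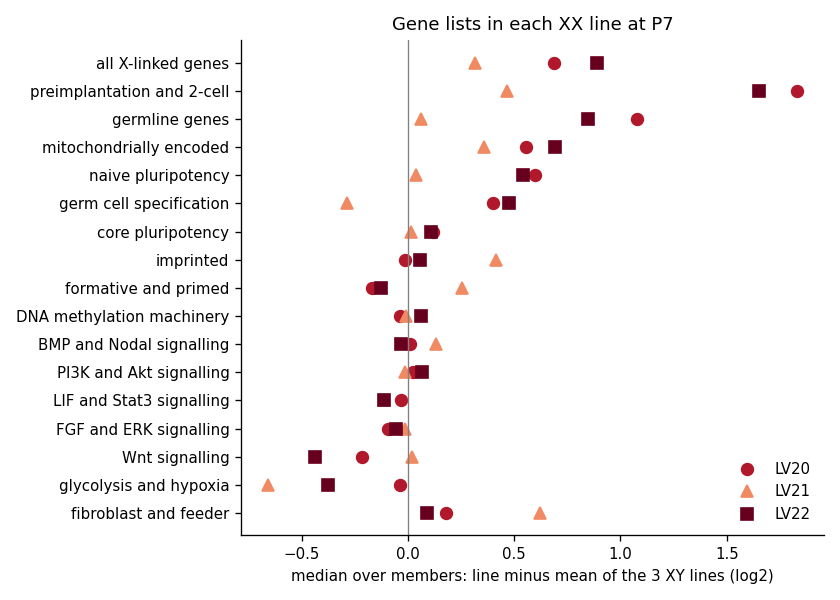
Median over the autosomal members of each list (all members where the list has no X-linked gene) of the XX line minus the mean of the 3 XY lines, on the log2 scale; points are lines and the top row is all X-linked genes. LV20 and LV22 stand apart from LV21 in the preimplantation, germline and naive lists, and LV21 is lowest in the glycolysis list and highest in the fibroblast list.

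The DNA methylation machinery was read at the transcript level. Of 19 autosomal members tested 1 was higher, Zfp57, and 1 lower, Uhrf1, beside 1.92% and 1.82% of autosomal genes. Without LV21 the counts were 2 and 2, beside 4.94% and 5.82%. Uhrf1, which brings the maintenance methyltransferase to replicating DNA, was at 8.25, 8.18 and 8.19 against 8.46, 8.53 and 8.55, a difference of -0.30 ± 0.08 (adjusted p = 0.0387). Dnmt1, the maintenance enzyme, was at 9.01, 8.84 and 8.93 against 9.02, 9.16 and 9.09 and did not pass (adjusted p = 0.214). Dnmt3b, a de novo methyltransferase, was at 7.53, 8.76 and 7.63 against 9.26, 8.22 and 8.66, with LV21 inside the XY range. It passed only without LV21 (-1.14, adjusted p = 0.017). Dnmt3a was at 6.83, 7.32 and 6.90 against 7.58, 7.27 and 7.21, and its cofactor Dnmt3l at 7.69, 6.75 and 7.93 against 7.63, 7.74 and 7.86. The demethylase Tet2 was at 8.08, 7.42 and 8.17 against 7.17, 7.40 and 7.37 and passed only without LV21 (0.81, adjusted p = 0.017). Tet1 differed by -0.04 ± 0.11. The call of Uhrf1 was lost without any one of LV20, LV22, LV4, LV8 and LV16.

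Imprinted genes are expressed from one parental allele. Of 27 tested members 1 was higher and 2 lower, beside 1.92% and 1.82% of autosomal genes, and without LV21 3 and 8, beside 4.94% and 5.82%. Plagl1, a zinc-finger factor, was at 6.59, 6.59 and 6.28 against 5.70, 5.27 and 5.06 (1.15 ± 0.28), with LV21 at the level of LV20. Igf2, a growth factor, was at 3.91, 4.48 and 3.95 against 5.10, 5.73 and 5.36 (-1.28 ± 0.26). Slc22a18, a transporter, was at -0.01, 1.07 and 0.14 against 2.12, 2.49 and 1.97, on 37 reads in XX and 124 in XY. The 3 calls were each lost without LV20, LV22, LV8 or LV16, with adjusted p up to 0.13 for Plagl1, 0.103 for Igf2 and 0.191 for Slc22a18, whose call was also lost without LV4.

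Other genes were taken for the size of their difference among called autosomal genes whose groups do not overlap, so that their separation is given by that choice. Prss35, a serine protease gene, was at 3.34, 2.25 and 3.39 against 0.26, -0.16 and 0.45 (2.81 ± 0.38, adjusted p = 0.00356), and held without each library. Slc13a5, a citrate transporter, was at 5.13, 3.67 and 5.05 against 2.16, 2.37 and 1.07. Nlrp4c, a relative of Nlrp4f, was at 5.44, 3.53 and 5.29 against 1.74, 1.21 and 1.41. In these genes LV21 again lay between the groups. Nefm, a neurofilament gene, was an exception, with 3.74, 3.85 and 4.02 against -0.42, 0.18 and 1.76. Among decreases, the mucin Muc3a was at 0.86, 0.43 and -0.09 against 2.09, 2.64 and 2.57, and Krt7, a keratin, at 2.28, 1.45 and 1.24 against 2.87, 3.80 and 3.79. Plac8 was at 2.63, 3.74 and 1.72 against 4.30, 4.17 and 4.40. Without LV22 all of these calls but that of Prss35 were lost (adjusted p from 0.0564 for Nlrp4c to 0.159 for Plac8), and without LV8 those of Nlrp4c, Nefm, Muc3a, Krt7 and Plac8. Those of Slc13a5, Nefm and Plac8 were also lost without LV20, those of Nefm and Plac8 without LV4, and those of Muc3a, Krt7 and Plac8 without LV16.

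Energy metabolism was read in a pair of lists. Of 7 mitochondrially encoded genes tested 5 were higher, beside 427 of all 13978 genes. Without LV21, 6 were higher, beside 967 of 13928. The mitochondrially encoded share of reads was 2.95% (LV20), 2.57% (LV21) and 3.13% (LV22) against 2% to 2.17% in the XY lines. At P13 the share was 2.77% to 3.28% in all 6 lines. mt-Nd1, a complex I subunit, was at 12.32, 12.14 and 12.50 against 11.60, 11.54 and 11.69. Of 21 glycolysis and hypoxia genes 0 were higher and 4 lower, also without LV21, beside 1.82% and 5.82% of autosomal genes lower, with median differences of -0.0237 in LV20, -0.675 in LV21 and -0.359 in LV22. Tpi1, a glycolytic enzyme, was at 8.18, 7.83 and 7.83 against 8.45, 8.79 and 8.53, and Pdk1, which inhibits entry of pyruvate into mitochondria, at 7.14, 7.33 and 6.96 against 8.08, 7.94 and 7.75. LV21, the XX line with the lowest X-linked output, had the lowest glycolysis median. Both lists kept 0 calls without LV22 and without LV8, and Pdk1 was also lost without LV20 (adjusted p = 0.0729) and LV4 (0.079).

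Markers of other cell types were summed in each library. The 8 pluripotent cell markers summed to 4104 CPM in LV20, 2734 in LV21 and 3877 in LV22, against 2649, 3019 and 3089 in LV4, LV8 and LV16. The 11 fibroblast and feeder markers were all detected in each library and summed to 311, 386 and 261 CPM in the XX lines and 291, 284 and 272 in the XY lines. In a longer list of 26 fibroblast and feeder genes limma called 0, with and without LV21. Yet 8 of the 26 stood above every XY line in all 3 XX lines, a larger share than the 11.5% of autosomal genes. The XX minus XY difference was above 0 for 22 of the 26, and its median over the list was 0.254, beside -0.012 for autosomal genes. The 3 mesendoderm markers in the table summed to 86.5 CPM in LV21, against 8.14 in LV20, 9.98 in LV22, 37.7 in LV4, 11.1 in LV8 and 13 in LV16. T (brachyury), a primitive streak marker, was at 2.48, 6.36 and 2.82 against 5.14, 3.45 and 3.47. LV21 was thus highest in mesendoderm transcripts among the 6 lines, and the part of these cells in its other values was not tested. Primitive endoderm markers summed to 19.8 to 31.8 CPM, trophoblast markers to 17.4 to 29.1 CPM and neuroectoderm markers to 1.66 to 7.85 CPM over the 6 lines, with at most 2 markers of a list at 0 reads in a library. In bulk samples fewer cells of a type and less RNA per cell cannot be told apart.

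The index sequences in the labels divide the P7 libraries. LV20 and the 3 XY lines carried an index of 6 letters, and LV21 and LV22 one of 8, as all P13 and CM libraries did. From P7 to P13 the index length thus changed in LV20 and the 3 XY lines, where it cannot be told apart from passage. The P7 minus P13 difference given below includes these changes. LV20 alone was set against the XY lines, a comparison within the 6-letter libraries that was added after the data were seen. Its median difference from the XY mean was 0.598 for autosomal naive members and 1.08 for autosomal germline members. It was 0.556 for mitochondrial members and -0.0237 for glycolysis members, beside -0.0202 for all autosomal genes. The difference was 2.29 for Tbx3, 1.145 for Nanog and 3.49 for Dazl. With a lone XX library this comparison has no XX spread of its own. Calls from it assume that LV20 varies like the other groups.

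At P13 few differences were called. Between the XO and XY lines only 4 genes were called (0.0286%), all Y-linked, and 0 of 12966 autosomal genes (0%) by limma, with 313 at an unadjusted p under 0.05. The median difference of the naive list was 0.191 at P13 and that of the germline list 0.416, against 0.347 and 0.624 at P7. Tbx3 was at 6.43, 5.92 and 7.07 in LV20, LV21 and LV22 at P13 against 6.41, 6.24 and 6.10 in LV4, LV8 and LV16, so the groups overlapped, with LV4 and LV8 higher and the 3 female lines lower than at P7. Dazl was at 4.86, 4.25 and 5.42 against 3.33, 4.35 and 3.70, and Nanog at 8.54, 8.06 and 8.78 against 8.19, 8.44 and 8.18. For all 3 genes LV22, the female line with the highest X-linked output at P13 (-0.15, against -0.53 in LV20 and -0.58 in LV21), was the highest line.

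The P7 difference minus the P13 difference was called for 0 of 13978 genes (0%), with 1020 autosomal and 183 X-linked genes at an unadjusted p under 0.05. For Tbx3 it was 1.76 ± 0.44 (adjusted p = 0.43), for Dazl 1.67 ± 0.58 (0.48) and for Nanog 0.61 ± 0.33 (0.61). Leaving out the P7 library of LV21 gave 145 calls, and leaving out the P13 library of LV22 as well gave 364.

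The CM ESC lines, which share no library with the iPSCs, gave a second reading of XX against XY. It comes from a joint fit of 16 libraries, 12 of them iPSCs, with 1 spread for each gene over all of them. Calls in the CM lines thus rest largely on the spread between iPSC lines. A gene with a small spread is more readily called in both, so shared calls are not separate evidence. In the CM lines 263 autosomal genes were higher (2.01%), 261 lower (2%) and 184 X-linked genes higher (35.2%). In the same fit 376 autosomal genes were higher in XX iPSCs. Of these, 80 were also higher in XX ESCs, which is 21.3% of the iPSC calls and 30.4% of the ESC calls. Of 375 lower autosomal genes in that fit 52 were also lower in the ESCs (13.9% and 19.9%), and 1 was called in the opposite direction. The XX minus XY difference itself differed between iPSCs and ESCs for 2 of 14114 genes (0.0142%), Ivns1abp and Rps4x-ps, named after their values were seen, with 1294 autosomal genes at an unadjusted p under 0.05.

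By list, the CM lines had 8 naive members higher and 0 lower of 22 (median 0.584), 4 preimplantation members higher of 7 (median 2.13) and 5 germline members higher and 1 lower of 40 (median 0.279). Other lists with calls in the iPSCs did not follow them. Of 7 mitochondrially encoded members 0 were called in the CM lines (median -0.223). Of 21 glycolysis and hypoxia members 0 were higher and 2 lower (median -0.0198), and of 13 autosomal core members 0 were higher and 2 lower (median -0.0292). Tbx3 was at 8.66 and 8.65 in CM1 and CM2 against 7.20 and 7.24 in CM3 and CM7, and Nanog at 9.50 and 9.59 against 8.62 and 8.40. Pramel7 was at 2.63 and 2.69 against -2.45 and -1.02. Dazl was at 5.21 and 4.96 against 3.62 and 3.26 and did not pass (1.65 ± 0.47, adjusted p = 0.0537), nor did Mael at 3.44 and 2.83 against 2.06 and 1.37 (adjusted p = 0.134). Dusp6, Axin2 and Dnmt3b, which passed in the iPSCs only without LV21, were called lower in the XX ESCs. They are a selection and no measure of how often such genes were called in the ESCs. Spry4, Stat3, Tet2, Sox2 and Tfcp2l1 also passed only without LV21, and their ESC values are not given here. Dusp6 was at 5.20 and 5.26 against 5.78 and 6.52 (-0.93, adjusted p = 0.042), Axin2 at 4.64 and 4.68 against 5.63 and 6.39 (-1.35, adjusted p = 0.043) and Dnmt3b at 7.70 and 7.65 against 9.32 and 9.09 (-1.53, adjusted p = 0.028). Esrrb, with a difference of 0.00 ± 0.12 in the iPSCs, had 0.44 ± 0.15 in the ESCs (adjusted p = 0.0991). Xist was at 7.13 and 6.95 in CM1 and CM2, above the 3.72, 1.66 and 4.33 of the XX iPSC lines.

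**Figure D5:**
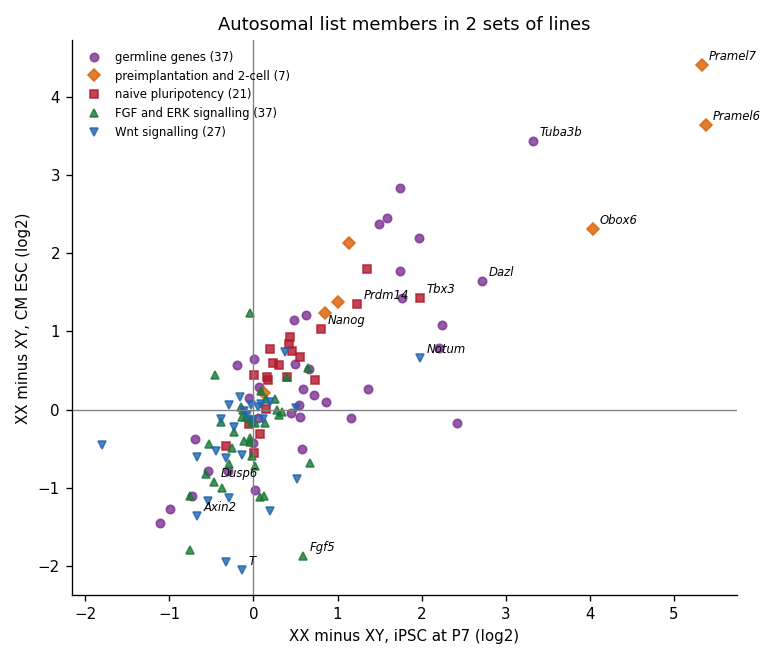
XX minus XY difference in iPSCs at P7 (horizontal) and in CM ESCs (vertical), log2, for the autosomal tested members of 5 lists (points, a gene each, numbers in brackets are members). Pramel6, Pramel7, Tuba3b, Dazl and Tbx3 lie to the upper right, while Dusp6 and Axin2 lie below 0 on both axes.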

How the data were processed

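RNA was measured by stranded mRNA sequencing. Per the submitters' processing notes, the tools were STAR 2.5.3a, featureCounts and edgeR, on GRCm38 (mm10). The authors deposited 1 table of 16687 genes in log2 CPM, of which 16 columns were used here and 8 were not. Each value equals a floor plus a whole number of reads (all within 0.01 read), which gave the reads per gene and library. Chromosomes and coordinates come from RefSeq on GRCm38.p6 by gene symbol or synonym.

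Genes whose mean reached 1 CPM were tested with limma 3.58.1 (R 4.3.3) on the deposited log2 values, with 1 mean per group over 12 iPSC libraries (8 residual degrees of freedom) and Benjamini-Hochberg adjustment over all 13978 genes. A fit of 16 libraries added the CM lines (14114 genes). On simulated data the fit was checked before use. Because the floor is part of each value, differences of low genes are understated.

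Named genes are up to 6 called members of each list with the largest difference and no overlap between groups, a fixed set described whatever their values (some named genes are not reported here), and the 8 largest autosomal changes in each direction with no overlap and a higher group mean of at least 4 CPM. The members and lists were chosen with earlier results of these data known. Alternatives were the P7 libraries alone, other pseudocounts, filters and normalizations, voom on the recovered reads, a block for line, and leaving out libraries.

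The same lines were read at P7 and P13, so line numbers pair libraries. The correlation of their deviations from group means ran from -0.0385 to 0.11 over 6 lines.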

Additional observations from a re-analysis of the deposited data

How the results depend on the processing

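The sign under the alternatives was followed for the 96 named genes only, and no called gene among them changed sign. Of the named genes not called, Klf2, Esrrb, Fgf5, Dnmt3l, Tet1, Etv4, T and Id1 did under at least 1. All genes called at P7, 668 with all libraries, numbered 428 with the 6 P7 libraries alone, 440 with no filter, 44 to 1727 on leaving out a library in turn, 1818 with neither LV21 (P7) nor LV22 (P13), and 295 with LV20 alone against the XY lines, which was chosen after seeing the data. In the same order, the 249 autosomal genes higher became 152, 155, 15 to 639, 669 and 94, and the 236 lower became 144, 145, 10 to 752, 809 and 78. Voom on recovered reads gave 159 higher. The 165 X-linked genes higher ranged from 12 to 306 on leaving out a library and were 309 with neither of those 2 libraries. The P7 minus P13 difference was called for 0 to 145 genes on leaving out a library and for 364 with neither of those 2, and the P7 minus CM difference for 2 to 7. The cause of these changes was not tested. With a block for line, pairing the P7 and P13 libraries, 249 autosomal genes were higher and 241 lower, the P7 minus P13 difference was called for 0 genes, and 1 of 96 named genes lost its call. Of 69 named genes called, 11 kept the call in every one of 17 alternatives. Depth limits the genes with few reads, such as Tuba3b and Pramel7, with 2 and 3 reads over the XY libraries.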
